A study of Mus musculus with 8 samples.

Results

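Endothelial cells decide whether blood clots and whether a vessel narrows or widens, and 9 genes that carry these tasks were followed here in RNA of sorted colon endothelium. The genes were Vwf, Thbd, Procr, Tfpi, F3, Plat, Nos3, Edn1 and Ednrb, chosen as a list by function, among 22180 genes measured. Each was read by the one probe set that names it alone (a probe set is the group of array probes summarized to 1 value), so no choice between probe sets arose. None of the 9 genes passed the test between allogeneic and syngeneic recipients. In each gene the range over the 4 syngeneic arrays was larger than the difference between the group means. Vwf, Thbd, Nos3 and Ednrb varied from array to array together with the endothelial signal, by Pearson's r after adjustment. Procr, Tfpi, Plat, Edn1 and tissue factor (F3) did not pass this test. No rank correlation with the endothelial signal passed adjustment. Without the 2 syngeneic arrays richest in endothelial signal, Vwf and Thbd kept an exact permutation p of r below 0.05. Nos3 and Ednrb did not.

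All recipients were female C57BL/6 mice that had 5 days of conditioning with busulfan and cyclophosphamide, which the syngeneic controls received too, and then bone marrow and T cells. Donors were LP/J mice in the allogeneic group (n = 4), whose T cells can attack the host in graft-versus-host disease (GVHD), and C57BL/6 mice in the syngeneic group (n = 4). Colon was taken at day 2 after transplantation and digested with collagenase, and cells positive for CD31 and negative for CD45 and CD11b were sorted, 1 sample per array. Neither an untransplanted group nor the age of the mice is given in the labels. The comparison asks which transcripts differed in colon vessels early after an allogeneic transplant.

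Values are log2 signals normalized by the authors, on which a difference of 1 is a doubling, and the number of arrays limits the precision. Over all genes they ran from 1.39 to 13.9 with a median gene at 5.33. Of the sort markers, Pecam1 (CD31) lay between 9.76 and 11.58 and Ptprc (CD45) between 4.42 and 6.18. Cdh5, the VE-cadherin gene, lay between 9.20 and 11.37, and Itgam (CD11b) between 4.99 and 5.92. The 24 measured genes of a pan-endothelial list averaged 7.47, 7.63, 8.10 and 8.15 on allogeneic arrays 1 to 4 and 8.05, 7.76, 8.75 and 9.60 on syngeneic arrays 1 to 4. Syngeneic arrays 3 and 4 were thus the richest in endothelial signal, and the other 2 syngeneic arrays lay within the allogeneic range. The list means were 7.84 ± 0.34 and 8.54 ± 0.82 (SD, n = 4 each), with a two-sided p of 0.171 by exact permutation, and all 24 genes had a negative change with none past the test. The 22 genes of a colon epithelial list, which the sort should have left out, averaged between 10.55 and 10.67 on allogeneic and between 9.99 and 10.66 on syngeneic arrays, so a signal cannot be assigned to endothelial cells alone. In such bulk samples, fewer cells of a type and less RNA per cell cannot be told apart.

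Resting endothelium keeps blood fluid. Thrombomodulin (Thbd) turns thrombin into an activator of protein C, which the endothelial protein C receptor (Procr) presents, and tissue factor pathway inhibitor (Tfpi) blocks the start of clotting by tissue factor (F3). Von Willebrand factor (Vwf) tethers platelets to an injured wall, and tissue plasminogen activator (Plat) starts the breakdown of fibrin. Endothelial nitric oxide synthase (Nos3) relaxes the vessel wall, whereas endothelin-1 (Edn1) contracts it. The endothelin B receptor (Ednrb) on endothelium binds endothelin, clears it and stimulates nitric oxide release. Injury of these functions is well known after transplantation, as thrombotic microangiopathy and as veno-occlusive disease of the liver.

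F3 and Edn1 are known to be induced by stress and inflammatory stimuli, in part through the AP-1 factors of the Fos and Jun families. The promoters that could be read were therefore set beside the mean of a list of immediate early genes. That list includes Fos and Jun but also genes of other families, so control by AP-1 was not tested. RefSeq windows (build GRCm38.p6) were at hand for 5 of the 9 genes. Both strands of the 250 bases before the start were searched for 6 short motifs. These were TGANTCA as the site of AP-1, CCACCC as that of KLF factors, GGGCGG as that of the factor Sp1, AGATAA as that of the zinc finger family of Gata factors, CCGGAA as that of ETS factors, and TATAAA as the core promoter element. Those of F3 and Procr are shown because they held the AP-1 letters, and that of Edn1 as an AP-1 induced gene whose window held none of the 6 motifs. The Ednrb window held none of them either, and the Tfpi windows held no AP-1 letters. Motif matches are in capitals, and each sequence runs 5′ to 3′ on the strand of its gene.
F3 (chr3:121723287-121723536, + strand): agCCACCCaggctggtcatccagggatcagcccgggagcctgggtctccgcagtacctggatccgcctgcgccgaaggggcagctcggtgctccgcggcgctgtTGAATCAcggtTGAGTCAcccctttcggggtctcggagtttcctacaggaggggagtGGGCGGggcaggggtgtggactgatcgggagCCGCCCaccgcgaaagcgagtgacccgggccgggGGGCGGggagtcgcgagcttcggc
Procr (chr2:155750967-155751216, + strand): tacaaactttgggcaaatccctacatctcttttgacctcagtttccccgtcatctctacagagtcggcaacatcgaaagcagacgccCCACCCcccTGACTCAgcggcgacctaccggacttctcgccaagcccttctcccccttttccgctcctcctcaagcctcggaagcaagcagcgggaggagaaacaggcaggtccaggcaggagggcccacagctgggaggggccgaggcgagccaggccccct
Edn1 (chr13:42301226-42301475, + strand): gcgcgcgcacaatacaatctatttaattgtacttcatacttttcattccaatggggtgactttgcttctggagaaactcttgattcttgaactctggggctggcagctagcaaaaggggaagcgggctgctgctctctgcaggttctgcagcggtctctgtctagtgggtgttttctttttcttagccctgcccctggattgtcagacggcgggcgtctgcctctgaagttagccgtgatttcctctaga
F3 held the AP-1 letters at 2 places, bases -146 to -140 and -135 to -129 counted back from the start, and Sp1 letters at 3. Procr held 1 AP-1 match, at bases -154 to -148, beside a KLF match at -163 to -158. Among all 32851 windows of 250 bases, 6.75% held the AP-1 letters, 28.1% the KLF letters and 32.7% the Sp1 letters. A match describes the letters and is not evidence of binding. Nor does a window without a match exclude sites with other letters or sites outside the bases searched.

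Vwf, the platelet tether, had signals of 6.34, 6.08, 6.81 and 6.73 on allogeneic arrays 1 to 4 and of 6.86, 6.46, 7.46 and 7.82 on syngeneic arrays 1 to 4. The highest values were on syngeneic arrays 3 and 4, and syngeneic array 2 lay inside the allogeneic range. Group means were 6.49 ± 0.34 and 7.15 ± 0.61 (SD, n = 4 each). The log2 change was -0.66 ± 0.29 (SE), with a 95% interval from -1.29 to -0.03, and leaving out 1 array gave between -0.89 (without syngeneic array 2) and -0.44 (without syngeneic array 4). It did not pass over all genes (limma adjusted p = 0.350, unadjusted p = 0.0412). Without syngeneic arrays 3 and 4 the log2 change was -0.17 (limma adjusted p = 0.865). Vwf is also made by platelets and their precursors. The 9 measured platelet and megakaryocyte genes averaged between 4.37 and 4.51 on allogeneic and between 4.35 and 4.53 on syngeneic arrays (two-sided exact permutation p = 0.857), with values of single genes from 2.64 to 6.52, and their part in the Vwf signal was not tested.

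Of the 3 anticoagulant genes, Thbd had the largest difference. Thbd stood at 8.09, 8.03, 8.58 and 8.58 on the allogeneic arrays and at 8.66, 8.34, 8.95 and 10.23 on the syngeneic ones. Syngeneic array 4 stood well over 1 log2 unit above every other array, and syngeneic array 2 again lay within the allogeneic range. The log2 change was -0.72 ± 0.34 (SE, 95% interval -1.48 to 0.04, limma adjusted p = 0.407). It was -0.33 without syngeneic array 4 and -0.18 without syngeneic arrays 3 and 4 (limma adjusted p = 0.525 and 0.826). The protein C receptor gene Procr read 5.81, 5.64, 6.33 and 5.85 in allogeneic samples and 5.73, 5.98, 6.06 and 6.33 in syngeneic samples, so both groups covered nearly the same range. Its log2 change was -0.12 ± 0.18 (SE, limma adjusted p = 0.840), and leaving out 1 array moved it between -0.26 (without allogeneic array 3) and -0.02 (without syngeneic array 4). The 95% interval from -0.52 to 0.29 leaves room for a level at most 1.44-fold higher in syngeneic or 1.22-fold higher in allogeneic samples.

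Tfpi, the inhibitor of tissue factor, lay at 5.42, 5.13, 5.35 and 5.20 on the allogeneic arrays. On the syngeneic arrays its values were 4.49, 5.46, 5.58 and 6.53, both the lowest and the highest of the 8. The allogeneic values thus fell inside a syngeneic spread of 2.04 log2 units (SD 0.13 against 0.84, n = 4 each). The log2 change of -0.24 ± 0.34 (SE, limma adjusted p = 0.817) was 0.10 without syngeneic array 4.

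F3 was the one gene of the 9 with a positive change. Tissue factor signals were 7.18, 7.16, 7.36 and 7.21 on the allogeneic arrays and 6.68, 7.38, 7.24 and 6.89 on the syngeneic arrays. The 4 allogeneic samples lay close together (SD 0.09, against 0.32 among syngeneic samples), between the second lowest and the highest syngeneic value. The log2 change was 0.18 ± 0.17 (SE, limma adjusted p = 0.707), and leaving out 1 array moved it between 0.06 (without syngeneic array 1) and 0.29 (without syngeneic array 2). Its 95% interval, from -0.19 to 0.55, excludes a rise of more than 1.47-fold or a fall of more than 1.14-fold at that level of confidence.

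Plat, which activates plasminogen, gave 6.81, 7.01, 6.65 and 7.00 in allogeneic samples and 6.79, 6.68, 6.74 and 8.03 in syngeneic samples. Syngeneic array 4 was about 1 log2 unit above the next, and the other 7 arrays fell between 6.65 and 7.01. The log2 change was -0.20 ± 0.28 (SE, limma adjusted p = 0.823) and became 0.13 without syngeneic array 4.

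Of the genes of vessel tone, Nos3 had a difference about as large as that of Thbd and the widest spread of the 9 genes over the arrays. Nos3 stood at 6.46, 6.91, 6.77 and 7.02 on the allogeneic arrays and at 6.86, 6.50, 7.98 and 8.78 on the syngeneic arrays. Syngeneic arrays 1 and 2 lay within the allogeneic range, and arrays 3 and 4 about 1 log2 unit or more above it. The log2 change was -0.74 ± 0.42 (SE, 95% interval -1.66 to 0.18, limma adjusted p = 0.488), and -0.32 without syngeneic array 4 (limma adjusted p = 0.708). Without syngeneic arrays 3 and 4 its sign turned, to 0.11 ± 0.20 (SE, limma adjusted p = 0.905).

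Edn1, the gene of the constrictor peptide, read 4.90, 4.44, 4.84 and 5.87 on the allogeneic arrays and 4.83, 4.91, 4.87 and 6.44 on the syngeneic arrays. In each group array 4 stood well above the other 3. Most Edn1 values were under the median gene, yet all exceeded 3.18, the most that any Y-linked gene reached in these female mice. The log2 change was -0.25 ± 0.39 (SE, limma adjusted p = 0.842), and 0.14 without syngeneic array 4. Ednrb, the endothelin receptor, had signals of 6.35, 6.55, 7.05 and 7.33 in allogeneic samples and of 6.74, 6.07, 7.00 and 7.96 in syngeneic samples. The syngeneic values enclosed the allogeneic ones, and the log2 change was -0.12 ± 0.36 (SE, limma adjusted p = 0.924). Enteric glia also carry Ednrb, and the 10 measured genes of enteric glia and neurons averaged between 5.16 and 5.43 on allogeneic and between 5.26 and 5.51 on syngeneic arrays, and their part in the Ednrb signal was not tested. Without syngeneic array 4 the Ednrb change was 0.21, and without allogeneic array 1 it was 0.03.

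**Figure D1:**
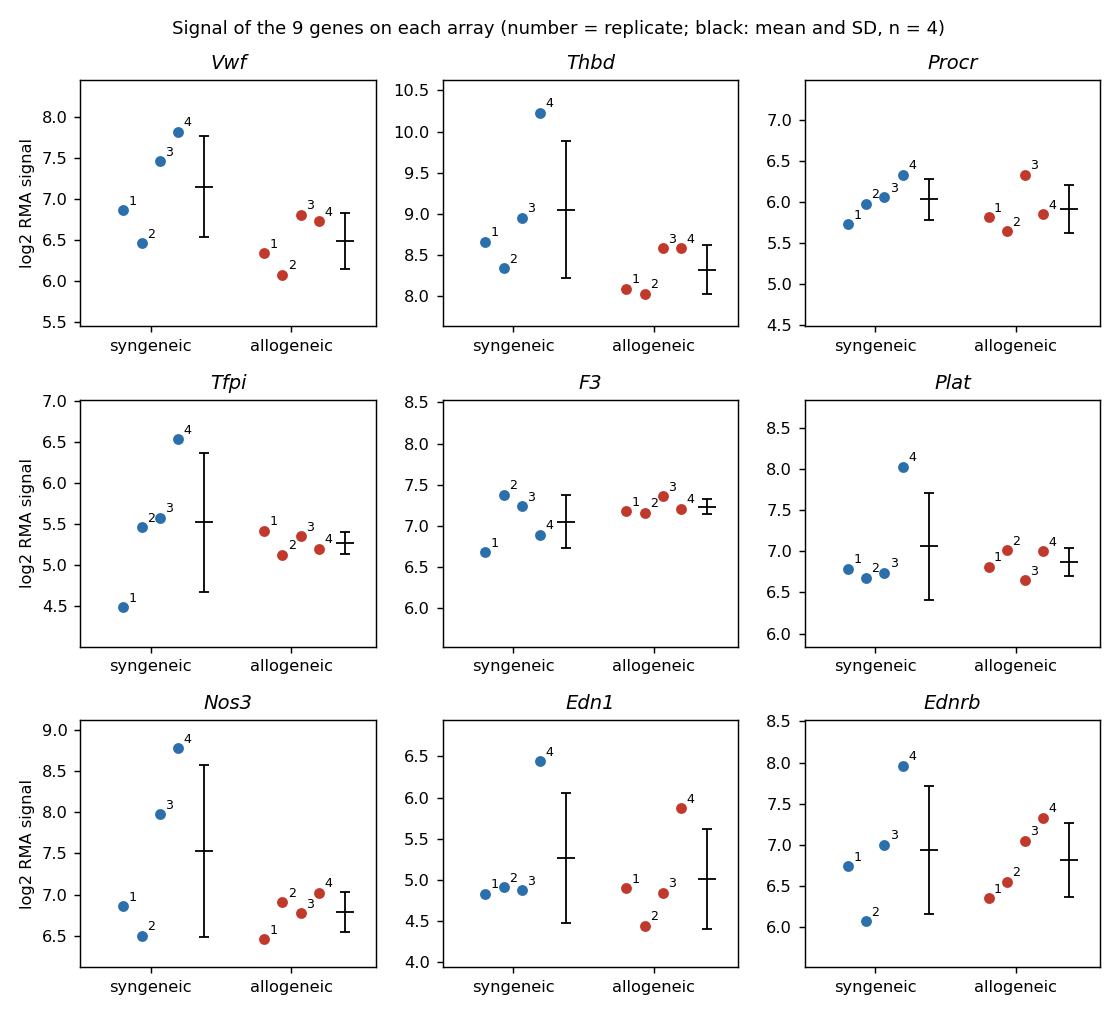
Log2 signals of the 9 genes on each array, syngeneic in blue and allogeneic in red, with replicate numbers beside the points and the mean and SD of 4 arrays in black. Every panel spans 3 log2 units. Syngeneic array 4 is the highest array for every gene but F3, and the groups overlap in all panels.

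Over the list, 0 of the 9 genes passed at a limma adjusted p below 0.05, where 0.469% of all genes did. One gene, Vwf, had an unadjusted p below 0.05, where 13.2% of all genes did. The groups overlapped in all 9 genes, whereas in 8.55% of all genes they did not (5.18% with higher and 3.36% with lower allogeneic values). A negative change was seen in 8 of the 9 genes against 51.0% of all genes, with a median of -0.24 against -0.01. Without syngeneic arrays 3 and 4, 7 of the 9 changes were positive, and the median was 0.13, against -0.0 for all genes. Those arrays had the highest endothelial list means, and leaving them out raises the change of any gene that is high on them. Syngeneic array 4 had the highest value in 8 of the 9 genes, and in 15.6% of all genes. The exception was F3, highest on syngeneic array 2. The SD was larger among syngeneic than among allogeneic arrays in 8 of the 9 genes, as in 60.1% of all genes, and Procr was the exception.

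The endothelial signal of an array was next set against each gene, over the 8 arrays. This gave 27 relations together with the epithelial list and a list of immediate early genes, and p-values were adjusted over all 27. Thbd followed the endothelial list most closely, with r = 0.977 (exact permutation p = 0.000298, adjusted p = 0.00603) and Spearman's rho = 0.881 (exact permutation p = 0.00724). Its r was 0.942 over the 6 arrays left without syngeneic arrays 3 and 4 (exact permutation p = 0.0167), and 0.968 after each group's mean was subtracted. Vwf had r = 0.960 (exact permutation p = 0.000446, adjusted p = 0.00603), rho = 0.881 (exact permutation p = 0.00724) and r = 0.864 over those 6 arrays (exact permutation p = 0.0403). These 2 genes, 1 of anticoagulation and 1 of platelet adhesion, ranked the 8 arrays in the same order (rho = 1.0).

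Nos3 had r = 0.962 (exact permutation p = 0.00198, adjusted p = 0.0107) and rho = 0.833 (exact permutation p = 0.0154). Over the 6 arrays r was 0.639 (exact permutation p = 0.207), so the relation was weaker and not clear without syngeneic arrays 3 and 4. After group means were subtracted, the r of Nos3 was 0.95. Ednrb had r = 0.865 (exact permutation p = 0.00548, adjusted p = 0.0211) and rho = 0.857 (exact permutation p = 0.0107), with r = 0.788 over the 6 arrays (exact permutation p = 0.0681) and 0.963 after group means were subtracted. In the plot of gene against endothelial signal, the 2 allogeneic arrays with the most endothelial signal lie above the syngeneic array next to them for Ednrb. No rho passed adjustment over the 27 relations (lowest adjusted p = 0.0964, exact permutation).

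The other 5 genes did not pass against the endothelial list after adjustment of r. Edn1 had r = 0.743 (exact permutation p = 0.0385) with rho = 0.476 (exact permutation p = 0.243), and Procr had r = 0.688 (exact permutation p = 0.0526) with rho = 0.738 (exact permutation p = 0.0458). Plat had r = 0.749 and rho = 0.119 (exact permutation p = 0.0849 and 0.793). Tfpi had r = 0.710 and rho = 0.476 (exact permutation p = 0.0729 and 0.243). Without syngeneic arrays 3 and 4 the r of Plat and Tfpi were -0.104 and -0.382. Of these 2 arrays only array 4 was high in Plat (8.03), while array 3 read 6.74. F3 alone had a negative r, -0.345 (exact permutation p = 0.399), with rho = -0.0238 (exact permutation p = 0.977). Among all genes the r of Thbd with this list stood at percentile 99.8 and that of F3 at percentile 27.2.

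**Figure D2:**
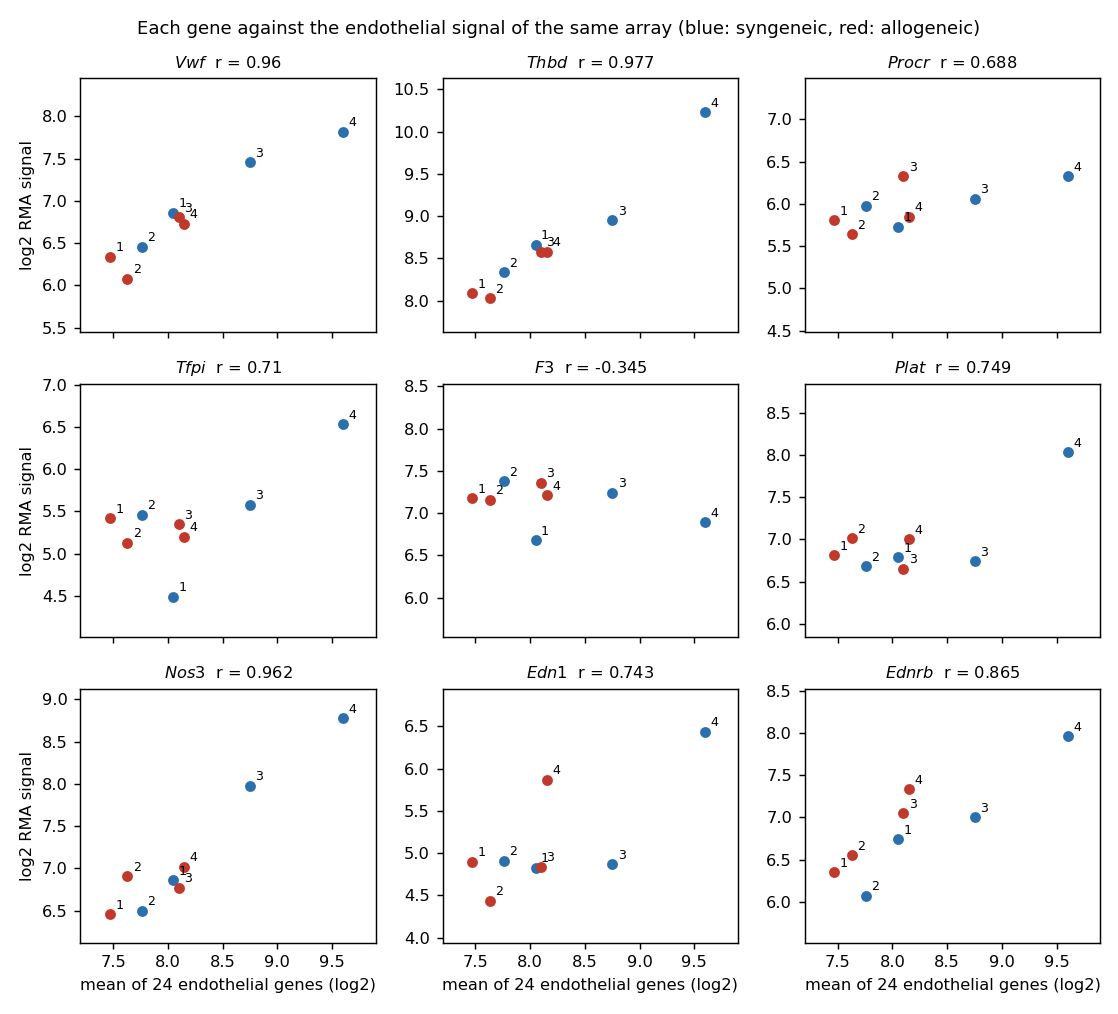
Log2 signal of each gene (vertical) against the mean of the 24 endothelial genes on the same array (horizontal, log2), syngeneic in blue and allogeneic in red, with replicate numbers and Pearson's r over the 8 arrays. Thbd and Vwf lie along a line that both groups share, whereas F3 shows no rise (r = -0.345).

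With the endothelial list mean as a covariate, the changes of Thbd, Vwf and Nos3 moved up to near 0. The log2 change of Thbd was -0.05 (95% interval -0.38 to 0.28) in place of -0.72, that of Vwf -0.14 (-0.52 to 0.24) in place of -0.66 and that of Nos3 0.07 (-0.38 to 0.51) in place of -0.74. Ednrb moved up as well, but from -0.12 and thus away from 0, to 0.56 ± 0.18 (SE, 95% interval 0.18 to 0.95), and did not pass over all genes (limma adjusted p = 0.254). F3 was little moved, at 0.14 (-0.30 to 0.58). None of the 9 genes passed in this fit, and 7 had a positive change.

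**Figure D3:**
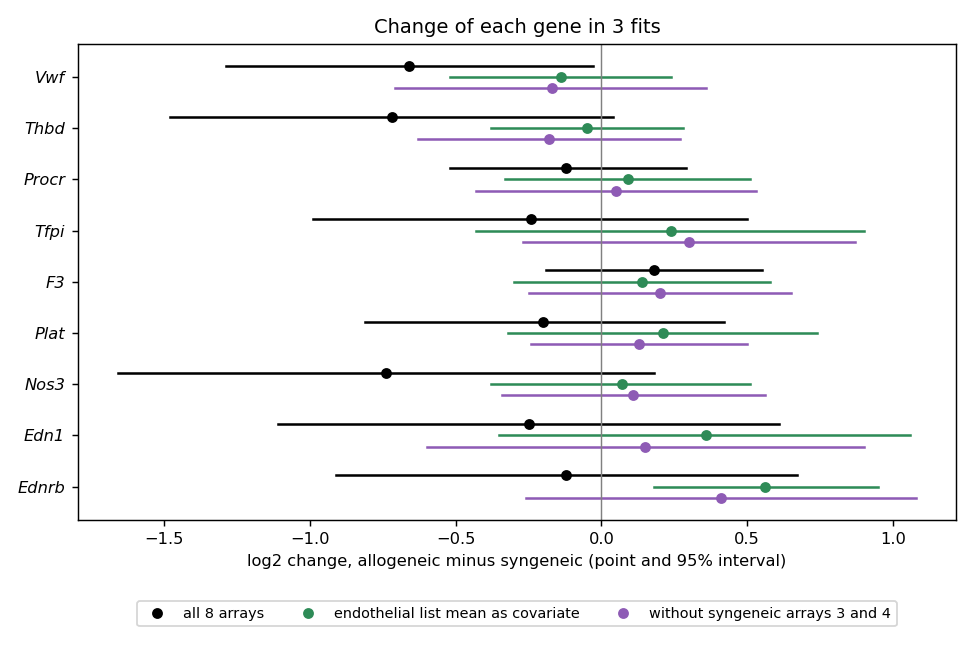
Log2 change of each gene, allogeneic minus syngeneic, with its 95% interval, over all 8 arrays (black), with the endothelial list mean as a covariate (green) and without syngeneic arrays 3 and 4 (purple). The changes of Vwf, Thbd and Nos3, between -0.74 and -0.66 over all arrays, lie between -0.18 and 0.11 in the other 2 fits.

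The 21 measured immediate early genes, which include Fos, Jun, Junb and Egr1 and respond to tissue digestion, averaged between 7.25 and 7.76 on allogeneic and between 7.56 and 8.33 on syngeneic arrays (two-sided exact permutation p = 0.171). F3, with its 2 AP-1 matches, did not follow this list (r = -0.399, exact permutation p = 0.32, rho = -0.286, exact permutation p = 0.501, r = -0.207 without the 2 arrays farthest from the list's median). Procr, with 1 match, had r = 0.583 (exact permutation p = 0.127) and rho = 0.476 (exact permutation p = 0.243). After adjustment over the 27 relations 4 genes passed against this list by r, and none by rho. Thbd had r = 0.932 (exact permutation p = 0.00169, adjusted p = 0.0107; rho = 0.786, exact permutation p = 0.0279) and Vwf r = 0.919 (exact permutation p = 0.000992, adjusted p = 0.00893; rho = 0.786, exact permutation p = 0.0279). Without the 2 farthest arrays, allogeneic 2 and syngeneic 4, their r were 0.684 and 0.740 (exact permutation p = 0.139 and 0.0819). Nos3 had r = 0.852 (exact permutation p = 0.0095, adjusted p = 0.0233; rho = 0.667, exact permutation p = 0.0831), and r = 0.874 without those arrays (exact permutation p = 0.0194). Edn1, with no match, had r = 0.848 (exact permutation p = 0.0089, adjusted p = 0.0233) and rho = 0.643 (exact permutation p = 0.0962), but r was 0.334 without those arrays (exact permutation p = 0.528). Syngeneic arrays 3 and 4 carried the highest means of this list as of the endothelial one, and the separate parts of both in a gene's level were not tested.

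Against the epithelial list, Nos3 (r = -0.947, exact permutation p = 0.00526), Thbd (r = -0.924, exact permutation p = 0.00908) and Vwf (r = -0.846, exact permutation p = 0.00851) ran opposite, at adjusted p = 0.0211, 0.0233 and 0.0233. Their rho were -0.548, -0.619 and -0.619 (exact permutation p = 0.171, 0.115 and 0.115). Without syngeneic arrays 3 and 4 the r of these 3 genes were -0.228, -0.0321 and -0.0399, so the relations rested on those arrays. F3 alone had a positive r with the epithelial list, 0.389 (exact permutation p = 0.31), with rho = 0.238 (exact permutation p = 0.582). The part of epithelial cells in the F3 signal was not tested.

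Among the 36 pairs of the 9 genes, Vwf with Thbd passed adjustment over the pairs, with r = 0.933 (exact permutation p = 2.48e-05, the smallest that 8 arrays can give, adjusted p = 0.000893), rho = 1.0 (exact permutation p = 4.96e-05) and r = 0.958 without the 2 arrays farthest in Vwf. Thbd with Nos3 had r = 0.916 (exact permutation p = 0.00308, adjusted p = 0.0554; rho = 0.643, exact permutation p = 0.0962). The lowest r was that of F3 with Plat, -0.470 (exact permutation p = 0.22; rho = -0.714, exact permutation p = 0.0576). Of all pairs, 30 had a positive r.

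The genes most like each of the 9 over the 8 arrays were sought among 10621 genes at or above the median gene, by Pearson's r and as a description only. Thbd was most like Plekhg1 (r = 0.998), the sphingosine-1-phosphate receptor gene S1pr1 (0.994) and Ehd4 (0.992). Vwf was most like Lrrc32 (0.987), Ace (0.987), which encodes angiotensin-converting enzyme, and Msn (0.985). Ace and S1pr1 are themselves genes of vessel tone in the lists used here, and none of the 27 genes named in this way is in the endothelial list. The neighbours of Nos3 were Bcam (0.991), Sparcl1 (0.990) and Tspan4 (0.984), and those of Ednrb were Mylip (0.992), Cd34 (0.973), a surface marker of endothelium and progenitors, and Apoe (0.969). Procr was nearest to Dusp14 (0.959), Efr3b (0.958) and Rprl1 (0.933), Tfpi to the nucleoside transporter gene Slc29a1 (0.959), Wnk1 (0.956) and Trim39 (0.951), and Plat to Rbms2 (0.984), Ccdc28b (0.962) and Reep2 (0.958). F3 was nearest to Cbfa2t2 (0.952), Axin1 (0.920) and Fubp3 (0.909). Edn1 was nearest to P3h2 (0.979), Gpx1 (0.961) and Nin (0.960), but its r with Gpx1 was -0.0665 without the 2 arrays farthest in Edn1. Without the 2 arrays farthest in Tfpi, Plat or F3, r was 0.216 for Tfpi with Trim39, 0.429 for Plat with Reep2 and 0.409 for F3 with Fubp3. In the other pairs named here r was at least 0.654 when the same was done.

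Other genes of the same pathways were taken from lists that were chosen with earlier results of these data known. The 4 with the smallest p in each are named. None of the 94 measured genes passed at a limma adjusted p below 0.05. Of 26 other coagulation and anticoagulant genes, 2 had an unadjusted p below 0.05, both higher in allogeneic samples, where 7.81% of all genes did, and the median log2 change was -0.04. Gas6, a vitamin K-dependent ligand of TAM receptors, read 10.09, 10.42, 10.26 and 10.59 on the allogeneic arrays and 9.82, 9.72, 10.10 and 9.86 on the syngeneic arrays, nearly apart. Its log2 change was 0.47 ± 0.13 (SE, limma adjusted p = 0.139) and 0.57 without syngeneic arrays 3 and 4. The inhibitor gene Tfpi2, a relative of Tfpi, had a change of 0.59 ± 0.20 (limma adjusted p = 0.240). Pros1, the protein S cofactor of protein C, had one of -0.44 and F9 one of -0.16. F9 values were all between 3.19 and 3.43, near those of Y-linked genes.

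For platelet adhesion and its restraint, 12 genes were measured, with 1 higher and 1 lower at an unadjusted p below 0.05, where 7.81% of all genes were higher and 5.43% lower. Selp, the gene of P-selectin, which is stored with von Willebrand factor in Weibel-Palade bodies, read 5.96, 5.42, 6.03 and 6.29 on the allogeneic arrays. Its syngeneic values were 6.61, 6.07, 8.41 and 8.38, again highest on arrays 3 and 4. The log2 change of Selp, -1.44 ± 0.49 (SE, limma adjusted p = 0.229), was -0.42 without those arrays. Nt5e, the CD73 enzyme that makes adenosine, had a change of 0.53, the cyclooxygenase gene Ptgs2 one of -0.55 and the platelet factor gene Pf4 one of 0.53.

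Among these lists fibrinolysis had the largest share of genes that were lower at an unadjusted p below 0.05. It held 4 such genes of 10 measured, where 5.43% of all genes were so, and 1 that was higher, where 7.81% were. Plaur, the urokinase receptor gene, stood at 7.55, 7.36, 7.29 and 7.13 on the allogeneic arrays and at 8.0, 8.34, 8.33 and 9.53 on the syngeneic arrays. These groups did not overlap. The log2 change of Plaur was -1.22 ± 0.28 (SE, limma adjusted p = 0.0980), and -0.84 without syngeneic arrays 3 and 4 (limma adjusted p = 0.114). Thbs1, the thrombospondin gene, had a change of -0.87 ± 0.26 (limma adjusted p = 0.176), which was -0.41 without those arrays. Anxa2, a cell surface receptor subunit for plasminogen and its activator, had one of -0.27 ± 0.09 (limma adjusted p = 0.215). The plasminogen receptor gene Plgrkt had a change of 0.40.

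In the endothelin pathway, 1 of 5 measured genes, Edn2, had an unadjusted p below 0.05, where 13.2% of all genes did. Edn2 signals were 4.94, 5.36, 5.12 and 5.15 in allogeneic and 4.81, 4.87, 4.59 and 4.79 in syngeneic samples, low in both but without overlap. Its change was 0.38 ± 0.13 (SE, limma adjusted p = 0.252). Ece1 and Ece2, which cleave big endothelin, had changes of -0.31 and 0.11, and Edn3 one of 0.23.

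Genes of nitric oxide had changes of both signs. Nos2, the inducible synthase that macrophages and epithelium also make, read 6.43, 6.46, 6.06 and 4.67 on the allogeneic arrays. On the syngeneic arrays it read 7.47, 7.87, 7.83 and 7.36, so that every syngeneic value was above every allogeneic one. The log2 change of Nos2 was -1.73 ± 0.35 (SE, limma adjusted p = 0.0616), and it was -1.76 without syngeneic arrays 3 and 4 and -2.02 with the endothelial covariate, both without passing (limma adjusted p = 0.180 and 0.0786). On syngeneic arrays 1 and 2 the endothelial synthase gene Nos3 lay within its allogeneic range, and Nos2 above its own. Slc7a1, an arginine transporter, had a change of -0.54 ± 0.17 (limma adjusted p = 0.206), the phosphodiesterase gene Pde5a, which ends the signal of nitric oxide in smooth muscle, one of 0.44, and the arginase gene Arg2 one of 0.66. Over the 15 genes of the list 10 changes were negative, against 51.0% of all genes, and the median was -0.10. At an unadjusted p below 0.05, 2 genes were lower and 1 higher, where 5.43% and 7.81% of all genes were so.

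Of 26 other genes of vessel tone 21 had a negative change, against 51.0% of all genes, with a median of -0.29. At an unadjusted p below 0.05, 2 were lower and 1 higher, where 5.43% and 7.81% of all genes were so. The apelin gene Apln had a change of -0.71 and S1pr1 one of -0.76, and both were near 0 without syngeneic arrays 3 and 4, at -0.16 and -0.21. The kinin receptor gene Bdkrb1 had a change of -0.36 and the potassium channel gene Kcnn4, which is also found in colon epithelium, one of 0.39 (limma adjusted p = 0.296 and 0.304).

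**Figure D4:**
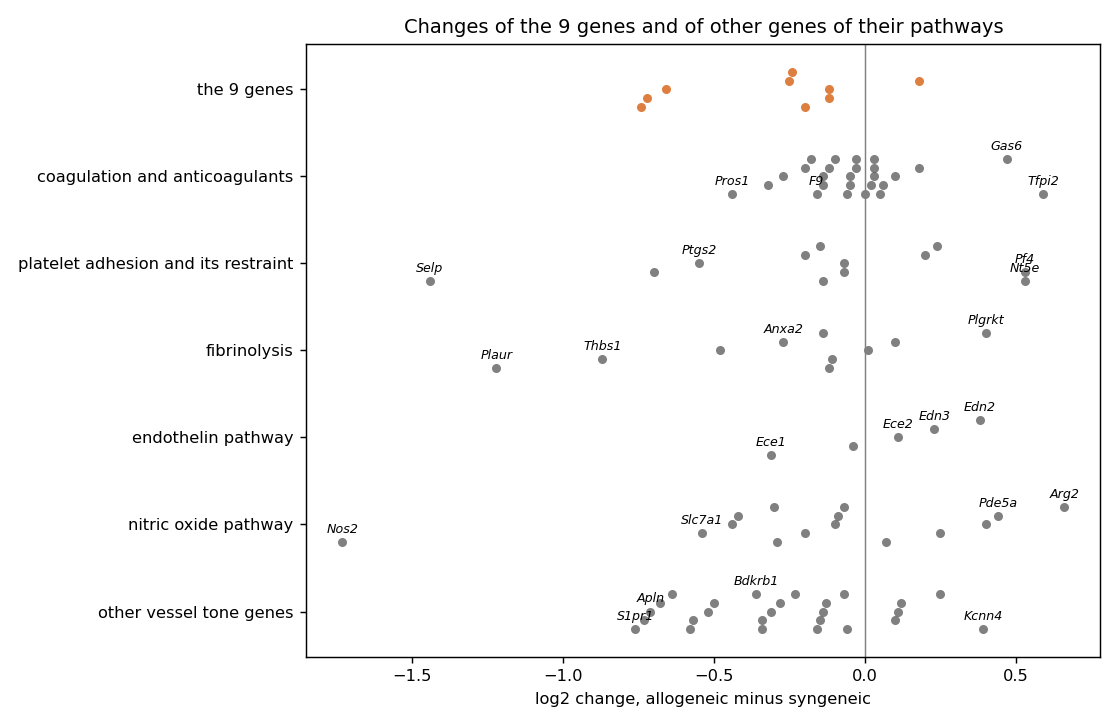
Log2 changes, allogeneic minus syngeneic, of the 9 genes (orange) and of the other measured genes of their pathways (grey), 1 point per gene, with the 4 genes of smallest p in each list named. No point passed at an adjusted p below 0.05, and Nos2 (-1.73), Selp (-1.44) and Plaur (-1.22) lie farthest to the left.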

How the data were processed

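The authors deposited log2 signals per probe set, made from Affymetrix Mouse Gene 2.0 arrays with Affymetrix Expression Console 1.4.1 and RMA (background correction, quantile normalization, probe summary), per the submitters' processing notes. Per the labels' protocols, 700 pg of RNA went into an amplifying kit. Scanner files were not used here, so there are no detection calls. Of 41345 probe sets 23521 had exactly 1 gene symbol by the platform annotation, and the one with the highest mean was kept per gene (22180 genes).

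Allogeneic minus syngeneic changes were fitted over all genes with limma 3.58.1 in R 4.3.3 (lmFit, eBayes with an intensity trend), with Benjamini-Hochberg adjustment and a threshold of 0.05, and were tested on simulated data. The 9 genes and all lists were chosen with earlier results of these data known, and no p was adjusted over the 9 genes alone. Named genes are the 9 genes, the 4 smallest p-values per pathway list, the 3 most similar genes per member and 4 sort markers. For list means, the 70 splits of the 8 arrays gave a two-sided exact permutation test. Marker lists of pericytes, fibroblasts, leukocytes, lymphatic vessels and erythrocytes (1 gene measured) gave p between 0.229 and 0.800. Correlations used exact two-sided permutation. The arrays hold separate mice per the series' design text. Taken over all genes, same-numbered arrays did not deviate together (r between -0.096 and 0.095). The endothelial list mean was nonetheless highest on arrays 3 and 4 in both groups. With the replicate number as a block, the SE was 0.16 in place of 0.39 for Edn1 and 0.20 in place of 0.36 for Ednrb. For F3 it stayed at 0.17. Whether same-numbered arrays share an origin was not tested. No batch or scan date was given with the values, so neither was modelled.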

Additional observations from a re-analysis of the deposited data

Results flagged for a closer look

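Of 38 groups of 4 arrays examined (the 9 genes and 10 marker lists in each of the 2 groups), 2 held an array far from the other 3, where chance gives about 1 in 20. Plat was 8.03 on syngeneic array 4, while the other syngeneic arrays lay between 6.68 and 6.79. Edn1 was 6.44 on the same array, while the others lay between 4.83 and 4.91. Syngeneic array 4 also had the highest endothelial and the lowest epithelial list mean (9.60 and 9.99), and their part in these 2 values was not tested.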

How the results depend on the processing

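None of the 9 genes passed in any of the 20 alternative fits (lowest limma adjusted p = 0.131, for Vwf with the replicate number as a block). The sign turned in 29 of 179 values, 23 of them without the scaling to the endothelial list, which shifts all genes alike, and the cause was not tested. With the endothelial list as covariate the log2 changes that turned were 0.09 (Procr), 0.24 (Tfpi), 0.21 (Plat), 0.07 (Nos3), 0.36 (Edn1) and 0.56 (Ednrb). With the epithelial list they were 0.04 (Procr), 0.22 (Tfpi), 0.20 (Plat), 0.16 (Edn1) and 0.37 (Ednrb). Without syngeneic arrays 3 and 4 they were 0.05 (Procr), 0.30 (Tfpi), 0.13 (Plat), 0.11 (Nos3), 0.15 (Edn1) and 0.41 (Ednrb). With array weights Tfpi was at 0.03. Scaling each array to the endothelial list moved the median of all genes to 0.70, and gave 0.04 (Vwf), 0.59 (Procr), 0.46 (Tfpi), 0.51 (Plat), 0.46 (Edn1) and 0.58 (Ednrb), all under that median. Leaving out 1 array gave between -0.58 and 0.10 for Tfpi, -0.32 and 0.13 for Plat, -0.53 and 0.14 for Edn1, and -0.41 and 0.21 for Ednrb. Edn1 lay under the median gene and was not in the fit of brighter genes.

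Over all genes 79 were higher and 25 lower. Brighter genes alone gave 138 and 55, the endothelial covariate 26 and 14, the epithelial one 42 and 13, the fit without syngeneic arrays 3 and 4 26 and 12, and the unmoderated model 0 and 0. Array weights gave 39 lower genes, endothelial scaling 2 lower genes and the replicate block 40 higher ones. Leaving out 1 array gave between 4 and 145 higher and between 4 and 35 lower genes. In the nitric oxide list 1 lower gene passed among brighter genes and 1 with the replicate block (Nos2, limma adjusted p = 0.0476), and leaving out 1 array gave between 0 and 1 there and in the fibrinolysis list. The labels state no pairing of same-numbered arrays, and whether these share an origin was not tested.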
